A study of Mus musculus with 11 samples.

Results

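De novo lipogenesis genes make fatty acids from acetyl groups and store them as triglyceride, and 10 of them were examined in the pancreas and the epididymal adipose tissue of mice with obesity-related alcohol-induced acute pancreatitis (OA-AP) and of control mice. The 10 genes were chosen by symbol as the established enzymes and transcription factors of the pathway, with earlier results of these data known. Each was listed in both count tables, 10 of 54532 genes listed for the pancreas and 10 of 46078 listed for adipose tissue, of which 45260 are in both. All 10 passed the filter on low counts in each tissue.

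In the pathway, ATP citrate lyase cleaves citrate exported from mitochondria to acetyl-CoA, acetyl-CoA carboxylase makes malonyl-CoA, and fatty acid synthase builds palmitate from both at the cost of NADPH. Elongases and desaturases then modify palmitate, and diacylglycerol acyltransferases join the products to glycerol. In adipose tissue and liver, insulin and carbohydrate raise transcription of the pathway through SREBP-1c and ChREBP, and diets rich in fat are known to lower it.

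All mice were wild type males, labelled as C57BL/6 and 16 weeks old and named C57BL/6J in the study's methods. For 12 weeks the controls were fed at 10 kcal% fat, and they then received 2 intraperitoneal saline injections 1 h apart, whereas OA-AP mice were fed at 60 kcal% fat for as long and received 2 ethanol injections of 2 g/kg at the same interval. Tissue was taken 12 h after the first injection, so diet, ethanol and pancreatitis cannot be told apart. RNA was sequenced from the pancreas in 2 control and 3 OA-AP libraries, and from epididymal adipose tissue in 3 control and 3 OA-AP libraries.

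The pancreas libraries held 14188832 to 17238919 counts and the adipose libraries 20825177 to 27928097. Levels are given as normalized CPM, the share of a library's counts on a scale set by edgeR's TMM factors within each tissue. CPM of the pancreas and of adipose tissue are therefore not on one scale. The tissues were tested against each other only in a fit of both together. Levels of different genes are compared only as CPM per kb of the gene length listed for the pancreas. A gene was called up- or downregulated at a Benjamini-Hochberg adjusted p under 0.05 from edgeR's quasi-likelihood test if it also differed 1.5-fold or more. The labels do not say that the libraries of a group came from separate animals, so p-values measure the spread between these libraries.

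The members made up 1.86% to 3.06% of all counts in adipose tissue and 0.00958% to 0.0264% in the pancreas. The order of levels differed between the tissues. In control adipose tissue Scd1, the stearoyl-CoA desaturase that puts a double bond into stearate and palmitate, stood highest at 3340 ± 465 CPM per kb (SD, n = 3). Dgat2 followed at 248 ± 96.7 and Fasn at 181 ± 155 CPM per kb, and Elovl6 was lowest at 3.96 ± 2.21 CPM per kb. From Dgat2 down to Mlxipl, at 27.7 ± 7.26 CPM per kb, the SD range of each gene overlapped that of the next gene in the order.

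In the control pancreas the highest level was that of Acly, at 9.29 ± 0.424 CPM per kb (SD, n = 2). Srebf1 came next at 5.40 ± 0.979, Scd1 at 3.56 ± 0.445 and Dgat1 at 2.72 ± 0.011 CPM per kb. Fasn, at 1.80 ± 0.107, and Mlxipl, at 1.73 ± 0.0286 CPM per kb, did not differ beyond their spread. Dgat2, Me1, Acaca and Elovl6 were lowest, from 0.423 down to 0.0966 CPM per kb, the SD range of each overlapping that of the next, and Elovl6 rested on 11 and 3 counts in the control libraries.

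Between control adipose tissue and control pancreas, 9 of the 10 members were called higher in adipose tissue, against 29.4% of the 17046 genes tested. The largest log2 differences were those of Scd1, 7.90 (standard error 0.90, edgeR adjusted p = 1.21e-05), and Dgat2, 7.23 (standard error 0.58, edgeR adjusted p = 1.6e-06). Srebf1 had the smallest called difference, 1.31 (standard error 0.26, edgeR adjusted p = 0.000985). Acly was the exception, with a log2 difference of 0.71 (standard error 0.53, edgeR adjusted p = 0.267). Without adipose control replicate 1 the difference for Acly was −0.16, and when libraries were scaled by their totals alone it was 3.18 and called. The median difference of all genes was 0.22 with TMM and 2.67 with library totals. The tables name 3441 of their 45260 shared genes differently, although none of the members, so the gene models behind the counts can differ between the tissues.

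In adipose tissue 5 of the 10 members were called between OA-AP and control mice, against 25.1% of the 15839 genes tested. Of these 5, Srebf1, Fasn, Dgat1 and Dgat2 were downregulated, against 13.0% of all genes, and Scd1 alone was upregulated, against 12.1% of all genes. The median log2 fold change of the 10 members was −0.71, beside −0.01 for all genes tested, and 9 of the 10 had a negative value. The groups did not overlap for 6 members, beside 52.4% of all genes. The 4 downregulated members are a transcription factor of the pathway, its fatty acid synthase and both acyltransferases, while the desaturase moved the other way. Without control replicate 1, control replicate 3 or OA-AP replicate 3 the number of members called was 3 in place of 5. In bulk tissue, fewer cells of a type and less RNA per cell cannot be told apart.

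**Figure D1:**
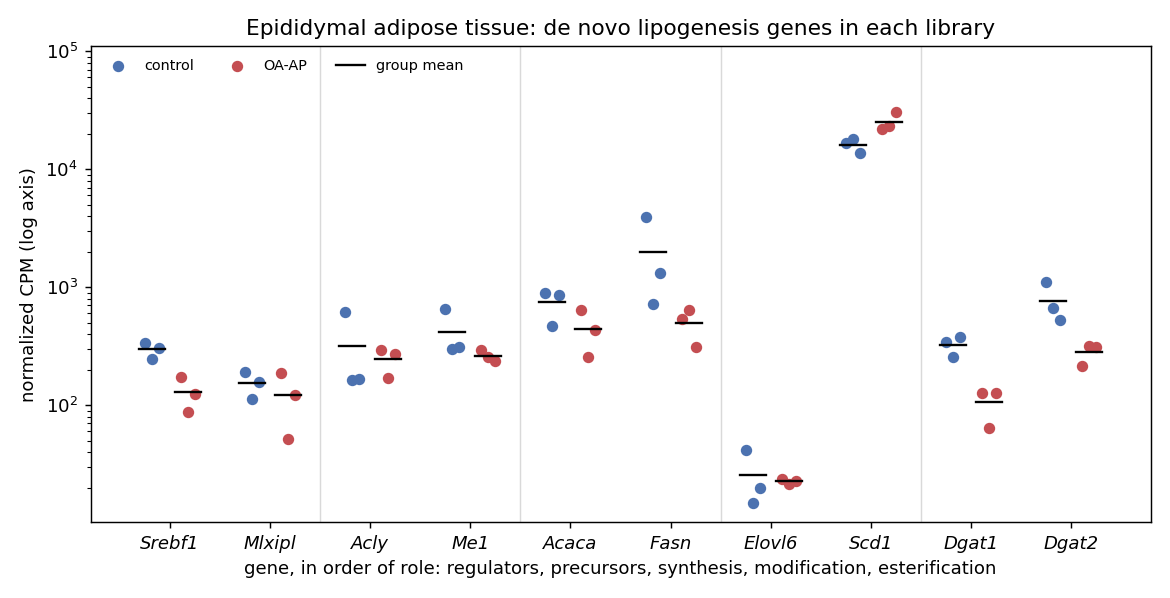
Normalized CPM on a log axis of the 10 members in each epididymal adipose library, with control libraries in blue (n = 3), OA-AP libraries in red (n = 3) and a bar at each group mean. Every OA-AP library lay below every control library for Srebf1, Fasn, Me1, Dgat1 and Dgat2 and above every control library for Scd1, and control replicate 1 was the highest point for Fasn at 3914 CPM.

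Srebf1 encodes the SREBP-1 transcription factors, which turn on most genes of fatty acid synthesis. In adipose tissue it had 336, 248 and 308 CPM in control replicates 1 to 3 and 174, 86.7 and 125 CPM in OA-AP replicates 1 to 3. All OA-AP values were below all control values, with OA-AP replicate 2 the lowest. Srebf1 was downregulated with a log2 fold change of −1.21 (standard error 0.25, edgeR adjusted p = 0.0112), 2.31-fold lower, and it stayed called under every alternative processing and without any single library. Mlxipl encodes ChREBP, the transcription factor that responds to glucose metabolites. It had 192, 112 and 157 CPM in control libraries and 189, 51.7 and 122 CPM in OA-AP libraries. These values overlapped, and Mlxipl was not called (log2 fold change −0.35, standard error 0.44, edgeR adjusted p = 0.57). Without OA-AP replicate 2, the lowest, its log2 fold change was 0.02.

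Acly and Me1 supply the pathway with acetyl-CoA and, through cytosolic malic enzyme, with NADPH. Acly had 616, 162 and 168 CPM in the control libraries and 292, 170 and 270 CPM in the OA-AP libraries. Control replicate 1 stood above all others and the remaining control values lay at or below the OA-AP range, so the log2 fold change of −0.37 (standard error 0.55) became 0.57 without that library, and Acly was called in neither case. Me1 had 650, 301 and 311 CPM in control libraries and 295, 256 and 237 CPM in OA-AP libraries. The groups did not overlap, but the nearest values of the groups, 301 and 295 CPM, were close, and Me1 was not called (log2 fold change −0.68, standard error 0.31, edgeR adjusted p = 0.127). Without control replicate 1 its log2 fold change was −0.21.

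Fasn, the multifunctional fatty acid synthase, had 3914, 720 and 1321 CPM in the control adipose libraries and 534, 644 and 311 CPM in the OA-AP libraries. All OA-AP values were lower, and control replicate 1 was far above the rest. Fasn was downregulated with a log2 fold change of −2.0 (standard error 0.63, edgeR adjusted p = 0.0468), 4.00-fold lower. This call was close to its threshold. It was lost when any library other than control replicate 2 was left out (adjusted p 0.0694 to 0.116) without a filter on low counts (adjusted p = 0.19) and with the replicate number as a block (adjusted p = 0.0736), and the log2 fold change was −1.03 without control replicate 1. Acaca, the carboxylase ahead of Fasn in the pathway, had 901, 470 and 856 CPM in control libraries and 646, 256 and 430 CPM in OA-AP libraries. The groups overlapped and Acaca was not called (log2 fold change −0.74, standard error 0.38, edgeR adjusted p = 0.169). Its log2 fold change was −1.11 without OA-AP replicate 1 and −0.46 without OA-AP replicate 2, and it was called with the replicate number as a block (log2 fold change −0.78, adjusted p = 0.0218).

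Scd1 was the one member upregulated in adipose tissue. It had 16810, 17960 and 13620 CPM in control libraries and 21930, 23440 and 30340 CPM in OA-AP libraries, which did not overlap. OA-AP replicate 3 was the highest. The log2 fold change was 0.65 (standard error 0.21, edgeR adjusted p = 0.0476), 1.56-fold higher, and the call was lost without any one of the control libraries or OA-AP replicate 3 (adjusted p 0.0678 to 0.15), with the replicate number as a block (0.0931) and with library totals alone (0.101), which move the median log2 fold change of all genes in adipose tissue from −0.01 to −0.17. Scd1 took 67.5%, 85.9% and 77.1% of the members' counts in control libraries and 89.8%, 92.6% and 93.9% in OA-AP libraries. Scd1 has close paralogs in Scd2, Scd3 and Scd4, and reads shared with them may have been split or lost in counting. Elovl6, which elongates palmitate to stearate, had 41.6, 14.9 and 19.8 CPM in control libraries and 23.7, 21.5 and 22.6 CPM in OA-AP libraries. The OA-AP values fell inside the control range, and Elovl6 was not called (log2 fold change −0.17, standard error 0.36, edgeR adjusted p = 0.731). Without control replicate 1, the highest, its log2 fold change was 0.39.

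Dgat1 and Dgat2 encode unrelated enzymes that add the last acyl chain of triglyceride, and both were downregulated. Dgat1 had 341, 255 and 381 CPM in control libraries and 126, 63.7 and 128 CPM in OA-AP libraries. The highest OA-AP value, 128 CPM, was far below the lowest control value, 255 CPM. The log2 fold change was −1.62 (standard error 0.29, edgeR adjusted p = 0.00697), 3.07-fold lower. Dgat2 had 1099, 663 and 528 CPM in control libraries and 215, 317 and 313 CPM in OA-AP libraries. The groups did not overlap, and control replicate 1 was the highest. The log2 fold change was −1.44 (standard error 0.30, edgeR adjusted p = 0.0104), 2.71-fold lower. Both genes stayed called under every alternative processing and without any single library.

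Markers of several cell types moved between the groups in the same libraries. Of 12 adipocyte markers tested, 1 was upregulated (Lep, log2 fold change 2.38) and 4 were downregulated (Plin1, Cfd, Adrb3 and Acvr1c), with a median of −0.21. Their summed level was 47960, 47640 and 50630 CPM in control libraries and 50660, 39430 and 43650 CPM in OA-AP libraries, and the most abundant, Fabp4, was not called (log2 fold change 0.19). All 6 neutrophil markers tested were upregulated, from a sum of 6.90, 11.8 and 12.8 CPM to 181.4, 178.9 and 197.4 CPM, with S100a9 the most abundant. All 7 lymphocyte markers tested were downregulated, with Cd79a the most abundant and sums of 12.0 to 50.5 CPM against 3.63 to 4.65 CPM. Of 8 fibroblast markers 5 were downregulated, with Dcn the most abundant and sums of 3531 to 4368 CPM against 2100 to 2732 CPM. Acinar markers, with Ctrb1 the most abundant, made up 0.877% of the counts of control replicate 2 and at most 0.00196% of the other adipose libraries. Of 10 macrophage markers, with Lyz2 the most abundant, 2 were upregulated and 1 was downregulated, of 5 red cell markers 2 were upregulated, and edgeR called none of the tested duct, endothelial or mesothelial markers, of which 0, 2 and 2 had an unadjusted p under 0.05. Of 4 acinar markers tested 1 was downregulated, while islet and epididymis markers were too low to test. The part of these cell types in the members' changes was not tested.

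The members were also set against the adipocyte genes Adipoq, Plin1 and Cidec, a choice made after values were seen. Per 100 counts of these genes, Srebf1 had 4.48, 3.28 and 3.63 counts in control libraries and 2.49, 1.48 and 1.78 in OA-AP libraries. Dgat1 had 4.55, 3.37 and 4.49 counts against 1.81, 1.09 and 1.82, and Dgat2 14.7, 8.77 and 6.23 counts against 3.08, 5.41 and 4.43. These 3 members and Scd1, at 161 to 237 counts against 314 to 430, did not overlap on this scale. The share of all genes without overlap on this scale was not computed, and in CPM it was 52.4%. Fasn, at 9.51 to 52.2 counts in control libraries and 4.41 to 11 in OA-AP libraries, did. Me1, at 3.67 to 8.68 counts against 3.35 to 4.36, overlapped too, although neither gene had overlapped in CPM. Plin1 itself was downregulated (log2 fold change −1.47), while Adipoq (−0.26) and Cidec (0.15) were not called.

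Other genes of the pathway were read from 5 lists in adipose tissue, where 12.1% of all genes were upregulated and 13.0% downregulated, with a median log2 fold change of −0.01. The medians were −0.38 for precursor and NADPH supply, −0.24 for fatty acid synthesis, 0.32 for elongation and desaturation, −0.11 for triglyceride assembly and −0.105 for regulators. For precursor and NADPH supply 2 of 15 tested genes were upregulated and 3 downregulated. H6pd, the hexose-6-phosphate dehydrogenase of the endoplasmic reticulum, had 605, 687 and 612 CPM in control libraries and 1552, 1738 and 1720 CPM in OA-AP libraries (log2 fold change 1.4). G6pdx, the cytosolic glucose-6-phosphate dehydrogenase, was also upregulated (0.91). Slc2a4, the insulin-responsive glucose transporter GLUT4, had 239, 134 and 158 CPM against 73.7, 61.8 and 60.7 CPM (−1.44), and Tkt, the transketolase of the pentose phosphate pathway, was downregulated as well (−1.15). For fatty acid synthesis 1 of 7 tested genes was called. This was Thrsp, a lipogenic protein induced by thyroid hormone and carbohydrate, with 806, 438 and 450 CPM in control libraries and 195, 221 and 127 CPM in OA-AP libraries (−1.64).

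For elongation and desaturation 4 of 16 tested genes were upregulated, among them Fads3 (log2 fold change 1.21) and Hsd17b12, the ketoacyl-CoA reductase of the elongation cycle (0.97), and 2 were downregulated, with Hacd4 at −1.53. For triglyceride assembly 3 of 21 tested genes were upregulated and 6 downregulated, beside 12.1% and 13.0% of all genes. Agpat2, which acylates lysophosphatidic acid, had 362, 194 and 213 CPM in control libraries and 101, 64.9 and 64.8 CPM in OA-AP libraries (−1.74). Gpat3, a glycerol-3-phosphate acyltransferase, had 151, 137 and 155 CPM against 74.6, 32.3 and 50.7 CPM (−1.49), and was matched by its identifier because the adipose table lists it as Agpat9. In both genes every OA-AP library was below every control library. Acsl4 (1.73) and Lpin3 (1.34) were upregulated, and the call of Lpin3 was lost without control replicate 2 or 3 or OA-AP replicate 2 or 3 (adjusted p 0.0716 to 0.137), with library totals alone (0.0648), without a filter on low counts (0.193) and with the replicate number as a block (0.0871). Of 32 regulators tested 5 were called, beside 25.1% of all genes, all of them downregulated, beside 13.0% of all genes. They include Cebpa, an adipocyte transcription factor, at −1.30, and Ppargc1b, a coactivator of SREBP-1, at −1.38, whose call was lost without control replicate 1 or 3 or OA-AP replicate 2 or 3 (adjusted p 0.0992 to 0.147) and without a filter on low counts (0.0844).

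**Figure D2:**
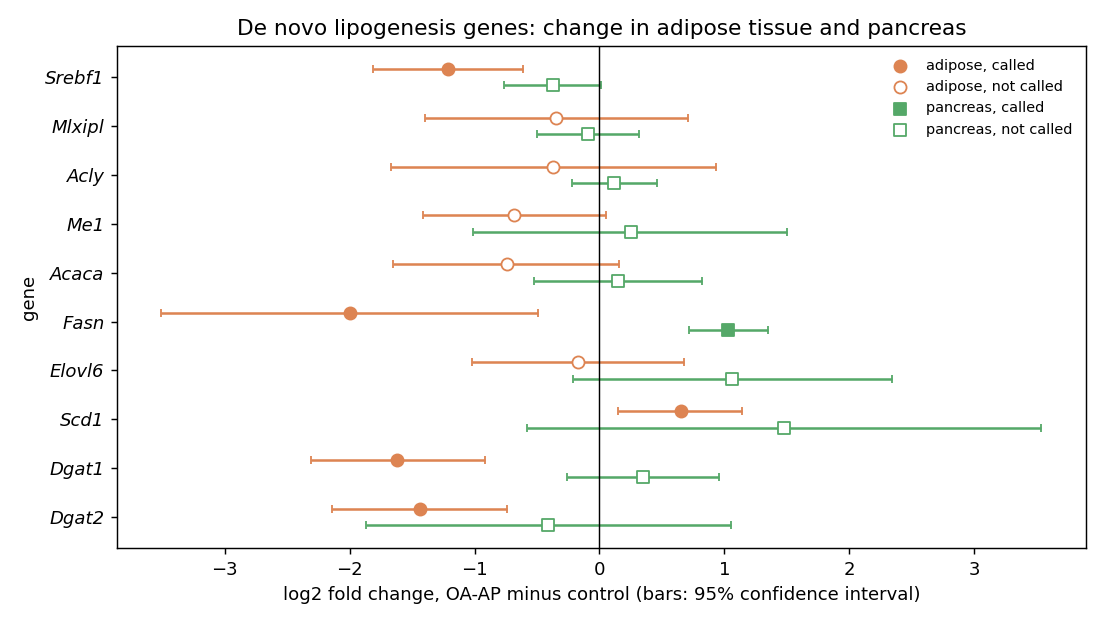
Log2 fold change, OA-AP minus control, of each member in adipose tissue (circles) and pancreas (squares), with 95% confidence intervals from edgeR and filled symbols for genes that were called. The intervals of Srebf1, Fasn, Dgat1 and Dgat2 lay below 0 in adipose tissue, and that of Scd1 lay above 0, from 0.15 to 1.14. In the pancreas the interval of Fasn lay above 0, from 0.72 to 1.35.

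In the pancreas 1 of the 10 members was called between OA-AP and control mice, against 29.8% of the 12884 genes tested. This member was Fasn, which was upregulated, against 16.2% of all genes, and no member was downregulated, against 13.5% of all genes. DESeq2 also called 1 of the 10, and 1 had an unadjusted p under 0.05. The median log2 fold change of the members was 0.20, beside 0.04 for all genes tested, and 5 of the 10 did not overlap between the groups, beside 62.3% of all genes. With library totals alone 5 members were called, all upregulated, beside 6349 of the 12884 genes tested, but this scaling moved the median of all genes from 0.04 to 0.75, and the changes below are relative to the TMM scale.

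Fasn had 18.9 and 20.5 CPM in the control pancreas libraries and 41.4, 42.1 and 37.4 CPM in the OA-AP libraries. The values within each group were close together, and all OA-AP values were above all control values. The log2 fold change was 1.03 (standard error 0.14, edgeR adjusted p = 0.00129), 2.05-fold higher. It stayed called under every alternative processing and without any single OA-AP library. Its log2 fold changes were 0.98 to 1.10 when any library was left out and 1.75 with library totals alone. Leaving out a control library leaves a lone control with no spread of its own, so only the log2 fold change is read there.

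Scd1 had 15.7 and 18.7 CPM in control pancreas libraries and 24.1, 23.7 and 96.2 CPM in OA-AP libraries. The groups did not overlap, and OA-AP replicate 3 was far above the others. Scd1 was not called (log2 fold change 1.48, standard error 0.79, edgeR adjusted p = 0.215), and without that library its log2 fold change was 0.43 (standard error 0.14, adjusted p = 0.0232), which is under the fold threshold. The same library had the highest Dgat1 value, 14.5 CPM, against 8.61 and 8.70 CPM in the other OA-AP libraries and 8.32 and 8.28 CPM in control libraries. Dgat1 was not called (log2 fold change 0.35, edgeR adjusted p = 0.334), and its log2 fold change was 0.01 without OA-AP replicate 3. With library totals alone Dgat1 was called at 1.04. Neutrophil markers summed to 101.4 CPM in OA-AP replicate 3, to 13.0 and 3.60 CPM in the other OA-AP libraries and to 1.03 and 1.89 CPM in control libraries. Of the 6 neutrophil markers tested edgeR called none, with 1 at an unadjusted p under 0.05. S100a9 was the most abundant of them in OA-AP replicate 3, at 40.7 CPM. The part of these markers in the Scd1 and Dgat1 values was not tested.

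Srebf1 had 34.3 and 26.5 CPM in control pancreas libraries and 24.6, 20.5 and 25.4 CPM in OA-AP libraries. All OA-AP values were below the control values, by a small margin, and Srebf1 was not called (log2 fold change −0.37, standard error 0.17, edgeR adjusted p = 0.12). Its log2 fold change was −0.17 without control replicate 1, −0.48 without OA-AP replicate 3 (adjusted p = 0.0163, under the fold threshold) and 0.33 with library totals alone. Elovl6 had 0.944 and 0.299 CPM in control libraries and 1.26, 1.60 and 1.15 CPM in OA-AP libraries, from 3 to 28 counts. It did not overlap between the groups and was not called (log2 fold change 1.06, standard error 0.55, edgeR adjusted p = 0.173). Its log2 fold change was 2.14 without control replicate 1 and 0.50 without control replicate 2, and with library totals alone it was called at 1.75. The remaining 5 members overlapped between the groups, with log2 fold changes from −0.41 for Dgat2 to 0.25 for Me1 and standard errors of 0.15 to 0.64. For Me1 the value was −0.02 without control replicate 2 and −0.34 without OA-AP replicate 3, and for Acaca it was −0.07 without control replicate 1. For Dgat2 it was −0.19 without control replicate 2, −0.02 without OA-AP replicate 2 and −1.09 without OA-AP replicate 3. With library totals alone it was 0.62 for Mlxipl and 0.27 for Dgat2, which were −0.09 and −0.41 with TMM. On that scale Mlxipl and Acly (log2 fold change 0.83) were called, and Dgat2 was not. Acly, the most abundant of the 5, had 50.6 and 47.5 CPM in control libraries and 54.0, 59.8 and 45.9 CPM in OA-AP libraries.

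**Figure D3:**
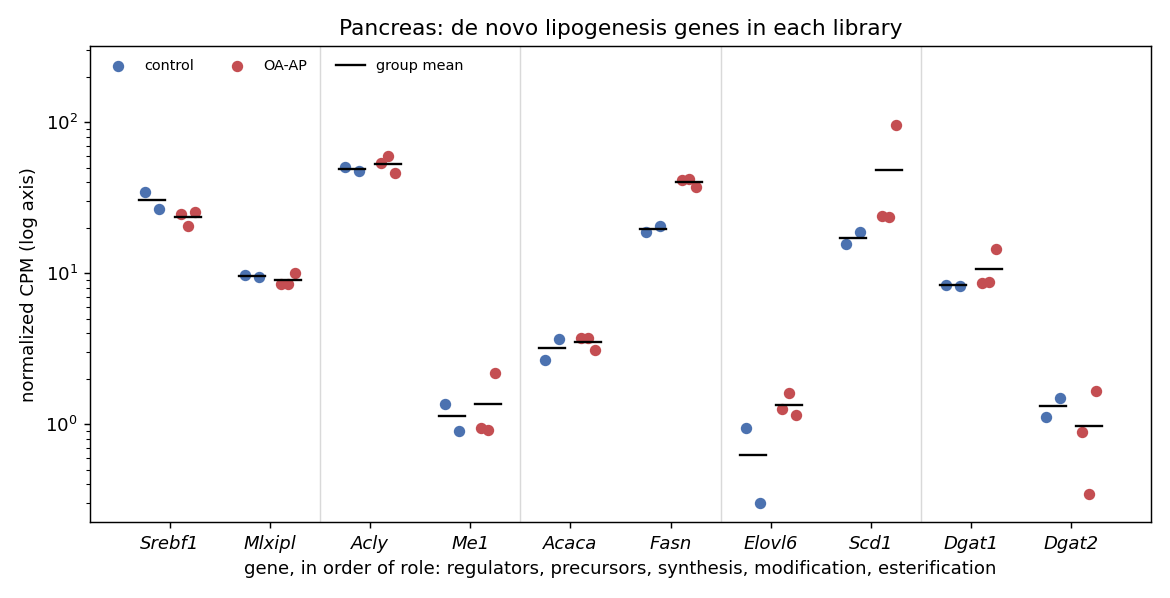
Normalized CPM on a log axis of the 10 members in each pancreas library, with control libraries in blue (n = 2), OA-AP libraries in red (n = 3) and a bar at each group mean. Fasn rose from 18.9 and 20.5 CPM to between 37.4 and 42.1 CPM, and the highest Scd1 point, 96.2 CPM, is OA-AP replicate 3.

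Adipocytes were nearly absent from the pancreas libraries by their defining markers. Adipoq, Plin1 and Cidec together had 0 and 1 counts in control libraries and 2, 5 and 5 counts in OA-AP libraries, against 121992 to 249155 counts in adipose libraries, and Retn was at 0. Of the 12 adipocyte markers 5 could be tested in the pancreas. Pnpla2, Plin4 and Lipe were upregulated, Acvr1c was downregulated and Fabp4 was not called. In control libraries Fabp4, at 6.86 ± 2.17, and Pnpla2, at 6.17 ± 0.287 CPM per kb, were the most abundant of these 5. In OA-AP libraries Pnpla2 was the most abundant, at 43 ± 17.7 CPM per kb. The summed level of the list was 62.8 and 82.1 CPM in control libraries and 206, 163.3 and 294 CPM in OA-AP libraries. Acinar markers made up 65.9% and 67.6% of control counts and 51.1%, 53.0% and 54.7% of OA-AP counts, with Ctrb1 the most abundant, and 15 of the 23 were downregulated and 1 upregulated. Of 7 islet markers 2 were upregulated, of 5 duct markers 2, of 6 endothelial markers 2, of 8 macrophage markers 1 and of 8 fibroblast markers 1 were downregulated, and edgeR called none of the mesothelial or red cell markers, with 1 of each at an unadjusted p under 0.05. Lymphocyte and epididymis markers were too low to test. The part of the acinar change in the Fasn result was not tested.

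In the pancreas the lists around the pathway gave 2 upregulated and 2 downregulated of 14 tested genes for precursor and NADPH supply, where 16.2% of all genes were upregulated and 13.5% downregulated. The median log2 fold changes were −0.17 for precursor and NADPH supply, −0.49 for fatty acid synthesis, −0.62 for elongation and desaturation, 0.28 for triglyceride assembly and 0.47 for regulators, beside 0.04 for all genes. H6pd had 10.2 and 9.57 CPM in control libraries and 206, 160 and 361 CPM in OA-AP libraries, a log2 fold change of 4.61. Aacs, the acetoacetyl-CoA synthetase that feeds ketone bodies into lipid synthesis, had 3.43 and 2.69 CPM against 21.6, 16.7 and 29.4 CPM (2.87), and Mdh1, the cytosolic malate dehydrogenase, was downregulated (−1.26). For fatty acid synthesis 1 of 7 was upregulated, Acacb, the mitochondrial acetyl-CoA carboxylase (0.80), and 1 was downregulated, Mecr, of the mitochondrial synthesis pathway (−0.71). For elongation and desaturation 2 of 13 were upregulated and 6 downregulated. Scd2, the paralog of Scd1, had 40.2 and 40.7 CPM in control libraries and 2.78, 6.12 and 1.36 CPM in OA-AP libraries (−3.57), and Fads1, the delta-5 desaturase, was downregulated as well (−2.27), while Elovl1 was upregulated (0.77). Acacb and Elovl1 were no longer called without either control library (adjusted p 0.0553 to 0.0709), nor was Mecr without control replicate 2 (adjusted p = 0.0789), and Scd2 was not called without a filter on low counts (adjusted p = 0.0626). With library totals alone Mdh1, at −0.55, was under the fold threshold and Mecr was at 0.01.

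For triglyceride assembly 4 of 19 tested genes were upregulated in the pancreas and 2 downregulated, so that 6 of the 19 were called, beside 29.8% of all genes. Lpin2, a phosphatidate phosphatase, had 7.64 and 9.37 CPM in control libraries and 32.5, 38.6 and 46.1 CPM in OA-AP libraries (2.20), and Fitm2, which takes part in lipid droplet formation, had 7.64 and 5.78 CPM against 27.1, 29.8 and 30.3 CPM (2.11). Neither gene overlapped between the groups. Bscl2, which encodes seipin, was downregulated (−1.47), as was Acsl5 (−1.17). Of 31 regulators tested, 12 were upregulated and 2 downregulated, beside 16.2% and 13.5% of all genes. Irs2, an adaptor of the insulin receptor, and Mlxip, the paralog of Mlxipl, were upregulated (2.48 and 2.33). Insig1, which holds SREBP precursors in the endoplasmic reticulum, had 54.3 and 58.6 CPM in control libraries and 19.9, 20.1 and 12.3 CPM in OA-AP libraries (−1.69), and Prkaa2, a catalytic subunit of AMPK, was downregulated (−0.93). Neither Acsl5 nor Prkaa2 was called without either control library (adjusted p 0.0656 to 0.143) or with library totals alone (log2 fold changes −0.45 and −0.21).

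The tissue by condition test, in which a call needed only an adjusted p under 0.05, asked whether the change differed between adipose tissue and pancreas. It called 2 of the 10 members, against 21.3% of the 17046 genes tested. Fasn was downregulated in adipose tissue and upregulated in the pancreas, and its log2 difference between the changes, adipose minus pancreas, was −3.04 (standard error 0.81, edgeR adjusted p = 0.0249). For Dgat1 the difference was −1.99 (standard error 0.45, edgeR adjusted p = 0.00981). The Dgat1 difference stayed called under every alternative and without any single library. The Fasn call was lost without either pancreas control library or pancreas OA-AP replicate 3 (adjusted p 0.0506 to 0.0958) without a filter on low counts (0.0953) and, as an alternative chosen after seeing the data, with a replicate block within each condition (0.0735), and its value was between −3.48 and −2.14 when a library was left out. Srebf1 and Dgat2, which were called in adipose tissue and not in the pancreas, were not shown to differ between the tissues, although Srebf1 passed without adipose OA-AP replicate 1 (−1.16, adjusted p = 0.0137), with the replicate number as a block (−0.86, adjusted p = 0.0233), with the block within each condition (−0.87, adjusted p = 0.0497) and with library totals alone (−1.69, adjusted p = 0.00238). Dgat2 passed with library totals alone (−1.87, adjusted p = 0.0453) and was at −0.40 without pancreas OA-AP replicate 3. With TMM and all libraries, the differences of Srebf1 and Dgat2 were −0.85 (standard error 0.33, edgeR adjusted p = 0.0962) and −1.05 (standard error 0.72, edgeR adjusted p = 0.352). Scd1 was not shown to differ either, at −0.85 (standard error 0.83, edgeR adjusted p = 0.526), with 0.16 without pancreas OA-AP replicate 3. For Acly (−0.50) and Mlxipl (−0.28) the difference was 0.37 without adipose control replicate 1 and 0.04 without adipose OA-AP replicate 2, and neither was called. With library totals alone 7 of the 10 members were called, beside 6662 of the 17046 genes tested, and the median difference of all genes was −0.88 in place of −0.06.

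The genes most like Fasn over the 11 libraries, by the root mean square difference of log2 CPM from the control mean of each tissue among 7439 genes, were Fam214a (0.525), Fbxo45 (0.573), E130102H24Rik (0.589), Osbpl1a (0.590) and Arhgap28 (0.617). None came closer than 0.525 on this log2 scale. Closer matches were found for Srebf1, with Aco1 and Bag4 (both 0.194), Mum1 (0.221), Tkt (0.225) and Cplx2 (0.228). Tkt is also on the list for precursor and NADPH supply.

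Fasn, Acaca, Acly and Srebf1 all lie on chromosome 11 of GRCm38, Fasn (ENSMUSG00000025153) at 120805846 to 120824547 on the minus strand and Srebf1 (ENSMUSG00000020538) at 60199089 to 60222581 on the minus strand. In GENCODE M21 no other gene overlaps Fasn, Scd1, Dgat1 or Dgat2. Srebf1 shares 109 bases with Rai1 on the other strand and holds the microRNA genes Mir6921 and Mir6922. Acly holds the microRNA gene Mir7116 on its own strand. On their own strands Acaca, Elovl6 and Me1 share 2318, 1671 and 1159 bases with the annotated genes Gm37391, Gm43072 and Gm38230. Acaca, Elovl6, Mlxipl and Me1 overlap annotated genes on the other strand, and since the strand setting of the counting was not stated, antisense reads could not be told apart there or at the end shared with Rai1.

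RefSeq promoter windows of GRCm38.p6, from 250 bases before to 50 after a transcription start, were found for 7 members with 11 windows, and none for Scd1, Dgat1 and Dgat2. They were searched on both strands for TCACNCCAC, the core of an SREBP site, for the E-box CACGTG, for CCAAT, the NF-Y box, and for the GC box GGGCGG. Only these strings were searched, with N as any base, so a window without a match may still hold a variant site. Of 32851 windows of all genes, 1.24% held the SREBP core, 7.15% the E-box, 37.4% CCAAT and 35.7% the GC box. Fasn held CCAAT at 3 positions, of which 2 overlap, and none of the other motifs. Of the 3 Srebf1 windows 2 held CCAAT and 2 the GC box, and none held the SREBP core or the E-box. Among the 11 windows, that core was found once and the E-box once, each in a window of Mlxipl. The sequences before the start are shown for Fasn and for the Srebf1 window that holds both CCAAT and GC boxes, which lies inside the longer Srebf1 transcripts, as both genes were downregulated in adipose tissue. They read from the 5′ to the 3′ end along the minus strand, with motif matches in capitals.
Fasn, chr11:120824548-120824797: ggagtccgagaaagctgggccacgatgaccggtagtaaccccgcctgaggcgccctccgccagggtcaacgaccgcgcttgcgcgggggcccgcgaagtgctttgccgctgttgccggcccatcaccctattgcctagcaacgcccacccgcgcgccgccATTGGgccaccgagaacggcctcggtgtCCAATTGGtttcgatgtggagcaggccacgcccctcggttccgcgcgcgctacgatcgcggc
Srebf1, chr11:60210472-60210721: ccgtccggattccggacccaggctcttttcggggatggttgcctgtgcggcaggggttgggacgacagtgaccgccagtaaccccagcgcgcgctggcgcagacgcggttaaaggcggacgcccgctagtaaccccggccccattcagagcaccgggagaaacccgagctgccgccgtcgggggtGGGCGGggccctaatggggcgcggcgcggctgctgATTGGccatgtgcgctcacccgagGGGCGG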

How the data were processed

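RNA sequencing measured gene expression in 11 libraries of pancreas and epididymal adipose tissue. The authors deposited raw counts per gene, made with Trim Galore 0.6.6, fastp 0.20.1, STAR on GRCm38 and featureCounts 2.0.1, and the deposited pancreas table lists a gene length in bases. The annotation release and strand setting were not stated. In R 4.3.3, edgeR 4.0.16 fitted each tissue over all genes passing filterByExpr, with TMM factors and robust quasi-likelihood F-tests (two-sided), and both tissues together over the genes listed in both tables, for the tissue by condition and control contrasts. Standard errors were taken from the F statistic. Adjusted p-values are Benjamini-Hochberg over all genes tested. Members and gene lists were chosen with earlier results of these data known. In each list and tissue up to 2 up- and 2 downregulated genes with the largest change are named, among called genes whose groups did not overlap and whose log2 CPM averaged 2 or more. Alternatives were DESeq2 1.42.0, other scaling, filters and fold thresholds, each library left out, and a replicate block.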

Additional observations from a re-analysis of the deposited data

Results flagged for a closer look

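The change from control to OA-AP differed between the tissues, at an edgeR adjusted p under 0.05 for the tissue by condition difference, in 30 of the 48 members and other named genes tested. Values are log2 differences, the change in adipose tissue minus the change in the pancreas. Most of the other named genes were chosen for a large change in 1 tissue, so this share is no sign of how common such differences are. Among the members they were Fasn (−3.04) and Dgat1 (−1.99). The Fasn call was lost under several alternatives, as given above.

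In precursor and NADPH supply the difference was negative for H6pd (−3.23) and Aacs (−2.81) and positive for Mdh1 (0.92) and G6pdx (1.07). H6pd was upregulated in both tissues, more so in the pancreas. In fatty acid synthesis it passed for Acacb (−1.24) and Mecr (0.92), and in elongation and desaturation for Scd2 (3.63), Fads1 (1.72), Fads3 (1.82) and Hsd17b12 (1.21). In triglyceride assembly it was negative for Lpin2 (−2.25), Fitm2 (−2.38), Agpat2 (−1.65) and Gpat3 (−3.03) and positive for Bscl2 (1.11), Acsl5 (1.73) and Acsl4 (1.04). Gpat3 had 5 and 0 counts in control and 18, 6 and 13 in OA-AP pancreas libraries and was not called there, so its difference is imprecise (standard error 0.96, edgeR adjusted p = 0.046). Among regulators the difference passed for Irs2 (−1.79), Mlxip (−1.92) and Cebpa (−1.78).

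Of the genes named for their likeness to Fasn, the difference passed for Fam214a (−2.25), Fbxo45 (−2.11), E130102H24Rik (−2.53), Osbpl1a (−1.89) and Arhgap28 (−2.14), and of those named for their likeness to Srebf1 for Aco1 (−1.08), Mum1 (−1.13) and Cplx2 (−1.19). These 8 genes were chosen by their values in the same libraries. The adjusted p-values lay between 5.14e-05 for Fitm2 and 0.0482 for Acsl4.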

How the results depend on the processing

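In the pancreas 3834 genes were called, 54.5% of them upregulated, and with library totals alone 6349, 92.0% upregulated. A fold threshold of 2 gave 2464, and leaving out 1 library 1495 to 4265, the lowest without control replicate 2 (1687 without control replicate 1), where the lone control is assumed to vary like the other group. In adipose tissue 3981 genes were called, 48.1% of them upregulated, and with library totals alone 4250, 32.1% upregulated, among them 4 members, all downregulated. There were 2228 at a fold threshold of 2 and 2865 to 4476 with 1 library left out. The tissue by condition test called 3636 genes, 6662 with library totals alone, of which 5.88% were higher in adipose tissue in place of 50.7%, and 2334 to 3857 with 1 library left out. Control adipose tissue and pancreas differed in 9454 genes, in 15368 with library totals alone and in 5808 with at least 10 counts required in every library, where fewer genes were tested. Members called were 5 in place of 1 in the pancreas and 7 in place of 2 for tissue by condition with library totals alone. They were 3 to 4 in place of 5 in adipose tissue, and 1 to 3 in place of 2 for tissue by condition, with 1 library left out, and 1 for tissue by condition without a filter on low counts. Other causes of these differences were not tested.

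With 1 library left out, log2 fold changes in the pancreas ranged from −0.07 to 0.40 for Acaca and from −0.34 to 0.60 for Me1 (−0.02 without control replicate 2). In adipose tissue they ranged from −0.68 to 0.57 for Acly, −0.43 to 0.39 for Elovl6 and −0.81 to 0.02 for Mlxipl. Tissue by condition differences ranged from −0.86 to 0.37 for Acly, −1.18 to 0.16 for Scd1 and −0.78 to 0.04 for Mlxipl, and the difference of Acly between control tissues from −0.16 to 1.06. With library totals alone, log2 fold changes in the pancreas were 0.33 for Srebf1, 0.62 for Mlxipl, 0.27 for Dgat2, 0.01 for Mecr, 0.33 for Aco1, 0.32 for Bag4, 0.54 for Mum1 and 0.46 for Cplx2, all negative with TMM.

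The replicate block takes the replicate number as a batch shared by control and OA-AP mice, which the labels do not state. With it the log2 fold change of Me1 in the pancreas was −0.28, and 4099 pancreas, 3477 adipose and 2978 tissue by condition genes were called, with 1, 4 and 3 members. A replicate block within each condition takes the number as an animal or batch, again not stated by the labels. This block, chosen after seeing the data, called 2156 genes for tissue by condition. Between control and OA-AP libraries of the same number, correlations of residuals over genes were 0.00147 and −0.041 in the pancreas and −0.0058, 0.0562 and −0.163 in adipose tissue. For different numbers they ranged from −0.0327 to 0.041 and from −0.25 to 0.293. Between adipose tissue and pancreas, same-number values were −0.0505 and −0.0275 in control and −0.00859, 0.0893 and 0.13 in OA-AP libraries. For different numbers they ranged from −0.0168 to 0.0505 in control and from −0.119 to 0.082 in OA-AP libraries. Residuals of the pancreas control libraries mirror each other, so their values are not independent.

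Srebf1, Dgat1 and Dgat2 in adipose tissue, Fasn in the pancreas and the tissue by condition difference of Dgat1 kept their direction and call under each alternative run for them. For Fasn in the pancreas and the Dgat1 difference, leaving out a pancreas control library leaves a lone control, which is assumed to vary like the other libraries. Depth limits Elovl6, Me1 and Dgat2 in the pancreas, where single libraries held 3 to 42 counts.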
